A study of Mus musculus with 4 samples.

Results

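The genes described here are 10 genes of the pluripotency network of mouse embryonic stem cells (ESCs): Pou5f1, Nanog, Sox2, Esrrb, Tfcp2l1, Prdm14, Dppa2, Dppa3, Dppa4 and Tcl1. They were chosen by name, with earlier results of these data known, out of 21938 protein-coding genes of the GENCODE release M21 annotation of mm10. For each gene, the CpG sites within 1 kb of its start site (the start-site window) and the sites in the rest of its gene body were taken separately from 4 reduced representation bisulfite sequencing (RRBS) libraries. Sites listed in all 4 libraries were averaged, and a region counted as measured with at least 3 of them. The window was measured in 9 of the 10 genes and the rest of the body in 7. All 10 lie outside the parts of the genome that were not analysed here for one library.

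The libraries were made from ESCs and from neurons of 2 lines, R1 and Tet/Tet, 1 library for each combination. R1 ESCs are wild type. The Dnmt1 Tet/Tet line carries tet-off constructs inserted behind the Dnmt1 promoter, so that DNMT1, the enzyme that copies CpG methylation onto newly made DNA, is overexpressed in its ESCs and in the neurons made from them. The Tet/Tet ESCs were kept in puromycin and G418. ESCs of both lines were grown with LIF, and neurons of both lines were obtained through embryoid bodies without LIF and culture in a neural differentiation medium. The labels name no second clone or culture of either line. RRBS reads CpGs near MspI sites (CCGG), and bisulfite does not separate methylcytosine from hydroxymethylcytosine. Each value is the percent of reads that kept the cytosine at a site. The number of reads per site is unknown, so values such as 0, 50 or 100% at single sites may rest on few reads. With 1 library per condition no test between conditions was possible. Where 2 values are given for a line, the first is of its ESCs and the second of its neurons. The SD given is over the sites of a gene and describes how uneven the gene is, not how cultures vary.

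The tables listed from 2310510 sites in R1 ESCs to 5295489 in R1 neurons. ESC and neuron libraries were sequenced in separate projects, and a difference between cell types cannot be told apart from one between projects. The lines shared a project within a cell type. Mitochondrial DNA, which is commonly taken to carry little CpG methylation, averaged 3.19% in ESCs and 15.9% in neurons of R1, and 7.37% and 6.27% in those of Tet/Tet, over 69 to 111 sites. The 116 sites at the CpG-rich start of Sox2 averaged 1.80% in the same R1 neuron library. The part of the mitochondrial difference in the results below was not tested, with these or other sites. The tables hold no RNA values, so neither DNMT1 overexpression nor the cell types were checked in them.

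In ESCs, OCT4 (the product of Pou5f1), SOX2 and NANOG form the core of a transcription factor circuit that keeps its own genes and a wider set active. ESRRB, TFCP2L1 and PRDM14 belong to the naive part of that circuit, and Dppa2, Dppa3, Dppa4 and Tcl1 are among the genes that are on in naive cells and shut on differentiation. Promoters with few CpGs are often methylated where the gene is silent, while CpG islands usually stay unmethylated whether the gene is on or off. The windows were therefore also sorted by CpG content into a high, an intermediate and a low class. Sox2, Prdm14 and Tfcp2l1 fell in the high class, Nanog, Esrrb, Dppa3, Dppa4 and Tcl1 in the intermediate class, and Pou5f1 and Dppa2 in the low class.

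The following stretches of the windows carry the contrasts described below, and are shown to let the density of measured CpGs be seen. They are from mm10, run 5′ to 3′ on the strand of the gene, and hold no annotated untranslated region. Capitals mark the CpGs that were listed in all 4 libraries. The Dppa4 stretch (chr16:48283987-48284186, + strand, intron) and the Tcl1 stretch (chr12:105222940-105223125, − strand, upstream) come from the windows with the largest R1 change. The Dppa3 stretch (chr6:122626635-122626834, + strand) was partly methylated in ESCs. The Pou5f1 stretch (chr17:35506563-35506666, + strand, intron) comes from a window with a smaller R1 change, and the Sox2 stretch (chr3:34650667-34650866, + strand, exon) from one that was low in every library.
Dppa4: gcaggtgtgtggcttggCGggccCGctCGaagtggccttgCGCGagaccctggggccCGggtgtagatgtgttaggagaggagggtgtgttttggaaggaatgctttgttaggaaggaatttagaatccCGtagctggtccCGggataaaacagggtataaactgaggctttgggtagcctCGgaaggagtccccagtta
Tcl1: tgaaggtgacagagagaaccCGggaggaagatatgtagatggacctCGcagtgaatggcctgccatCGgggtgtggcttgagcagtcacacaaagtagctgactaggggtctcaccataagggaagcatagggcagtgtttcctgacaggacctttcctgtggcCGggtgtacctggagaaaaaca
Dppa3: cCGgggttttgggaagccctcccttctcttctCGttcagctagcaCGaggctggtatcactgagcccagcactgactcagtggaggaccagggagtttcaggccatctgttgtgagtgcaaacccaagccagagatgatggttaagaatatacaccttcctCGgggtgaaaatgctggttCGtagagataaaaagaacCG
Pou5f1: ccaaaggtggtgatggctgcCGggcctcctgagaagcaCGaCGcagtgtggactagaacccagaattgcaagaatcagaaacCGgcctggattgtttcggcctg
Sox2: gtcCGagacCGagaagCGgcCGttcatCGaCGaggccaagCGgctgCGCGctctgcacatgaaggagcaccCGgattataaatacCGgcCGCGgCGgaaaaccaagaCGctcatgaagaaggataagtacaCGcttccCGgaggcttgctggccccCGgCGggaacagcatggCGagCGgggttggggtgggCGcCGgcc

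Over the 9 measured CpGs of this Dppa4 stretch the mean was 2.13% in ESCs and 84.2% in neurons of R1, and 2.85% and 16.3% in those of Tet/Tet. Over the 23 measured CpGs of the Sox2 stretch the means were 1.89% and 1.83% in R1 and 2.28% and 3.77% in Tet/Tet. MspI recognises CCGG, which occurs 2 times in the Dppa4 stretch and 5 times in the Sox2 stretch (the motif reads the same on both strands). At least 1 CCGG was found in the 2 kb window of 86.3% of protein-coding genes, and in 9 of the 10 genes here. The exception was Dppa2, whose window holds 14 CpGs and no CCGG and had no listed site in any library.

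From ESCs to neurons in the R1 line, 7 of the 9 measured windows were higher by at least 10 percentage points and none was lower by that much. Of all 12184 protein-coding windows measured the same way, 29.8% were higher by that much. The median window of the 9 genes was at 4.22% in R1 ESCs and 36.1% in R1 neurons, against 2.62% and 5.502% for the median over all genes. The background share differed between the CpG classes, so these are given apart. In the intermediate class all 5 of the genes measured were counted as higher, where the share over that class was 62%. In the low class Pou5f1 was counted, and 93.7% of that class was. In the high class 1 of 3 was counted (Prdm14), against 11.2% of that class. No other protein-coding gene overlaps any of the 10.

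In Tet/Tet, the same step gave 2 windows counted as higher (Dppa4 and Tcl1) and 2 counted as lower (Esrrb and Dppa3) of the 9. Over all windows 0.747% were higher and 10.8% were lower by at least 10 points. The Tet/Tet change was below the R1 change by at least 10 points in 7 of the 9 windows, where 30.7% of all windows met the same mark. By class, it was 5 of 5 intermediate windows against 62.6% of that class, 1 of 1 low window against 96.4%, and 1 of 3 high windows against 11.9%. The difference at Pou5f1 was above (less negative than) that of 88.4% of the low class, and that at Nanog was above 49.2% of the intermediate class. A window under 10% in ESCs has no room to be counted as lower, and Esrrb and Dppa3 were the only windows of the 9 above that level in either ESC library.

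**Figure D1:**
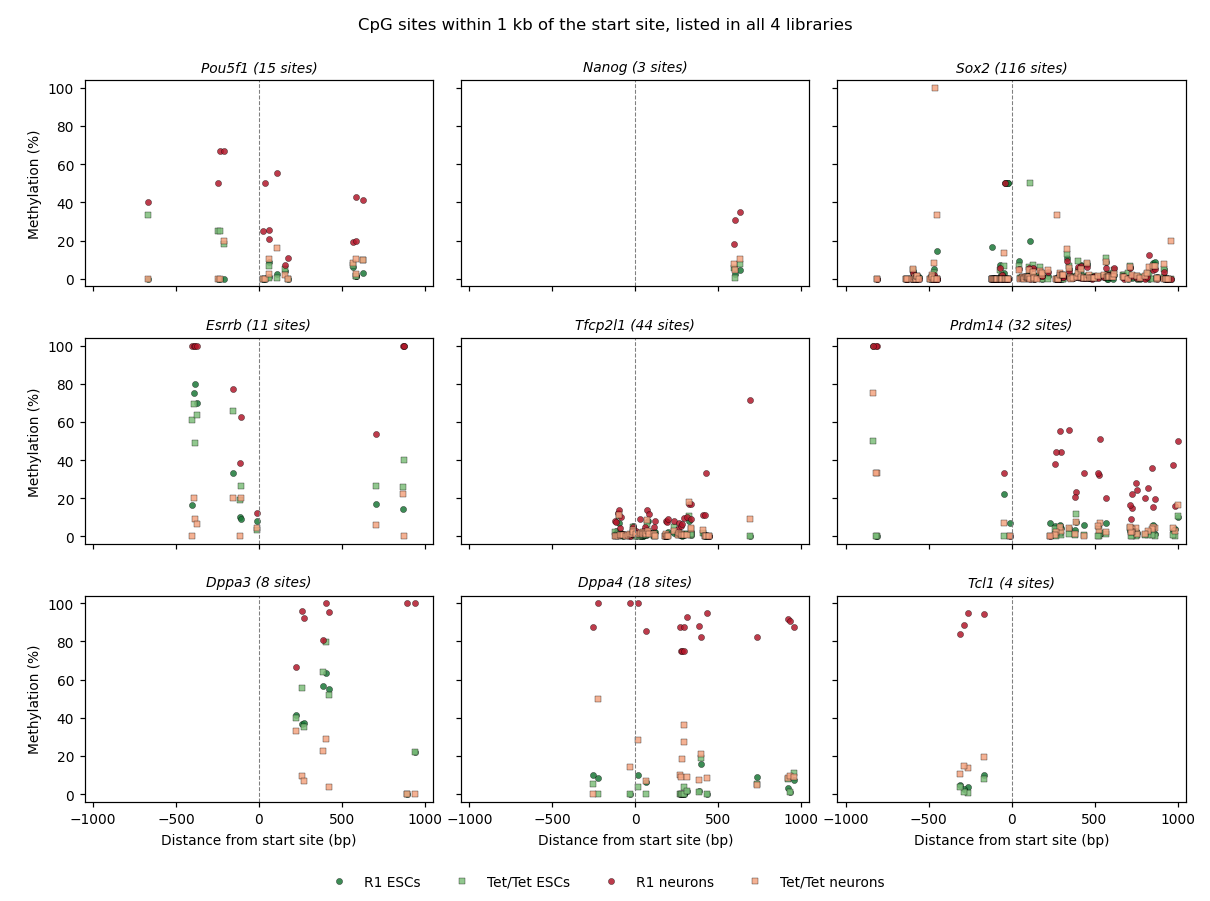
Methylation (%) of each CpG site within 1 kb of the start site against its distance from the start site in bp, for the 9 measured genes, with 1 point per site and library. R1 neurons (dark red circles) lie highest at Dppa3, Tcl1 and Dppa4, with means of 91.4%, 90.4% and 88.0%, and lie with the other libraries near 0 at Sox2, with a mean of 1.80%.

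Of the core factors, Pou5f1 (ENSMUSG00000024406.16, chr17:35506018-35510772, + strand) encodes OCT4, a POU domain transcription factor without which the pluripotent inner cell mass is not formed. The 15 sites of its window averaged 1.90% (SD 2.65) in ESCs and 36.1% (SD 19.3) in neurons of R1, and 8.91% (SD 11.1) and 5.44% (SD 6.57) in those of Tet/Tet. All 15 sites were higher in R1 neurons than in R1 ESCs, by 34.2 points on average, while the Tet/Tet mean differed by -3.47 points with 8 sites higher and 4 lower. The R1 change exceeded that of 29.6% of the 1157 windows of the low class. The 4 sites upstream of the start stood apart from the 11 downstream. Upstream, the means were 0% in ESCs and 55.8% in neurons of R1, and 25.4% and 5% in those of Tet/Tet. Tet/Tet ESCs exceeded R1 ESCs at each of the 4 sites. In Tet/Tet neurons the upstream sites at -671, -244 and -232 bp read 0%. That at -208 bp read 20%, against 18.2% in Tet/Tet ESCs. Upstream sites not listed in all 4 libraries read 0% at -761, -505 and -277 bp and 100% at -146 bp in Tet/Tet ESCs. Downstream, the means were 2.59% and 28.9% in R1 and 2.92% and 5.60% in Tet/Tet. In the rest of the Pou5f1 body the 21 sites averaged 5.10% (SD 7.66) in ESCs and 40.4% (SD 34.8) in neurons of R1, and 2.68% (SD 4.34) and 4.69% (SD 4.46) in those of Tet/Tet. Of these, 16 sites lie within 1 kb of another annotated coding start of Pou5f1 and averaged 27.6% in R1 neurons, and the 5 beyond averaged 81.6%. At 5.10%, this body was below the median R1 ESC gene body of 39.2%.

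Nanog (ENSMUSG00000012396.12, chr6:122707489-122714633, + strand) encodes the homeodomain factor that stabilises the naive state. Only 3 sites of its window were listed in all 4 libraries, all intronic and between 594 and 631 bp after the start. They averaged 4.22% (SD 1.57) in ESCs and 27.8% (SD 8.68) in neurons of R1, and 4.56% (SD 3.65) and 7.37% (SD 2.84) in those of Tet/Tet. Each of the 3 was higher in neurons than in ESCs in both lines, by 23.6 points on average in R1 and by 2.81 in Tet/Tet. The R1 change was above that of 56.1% of the 2588 windows of its class, so it was near the middle of that class. The difference of changes was -20.8 points, and -7.46 with the sites listed in both libraries of a line, which is under the mark of 10. That setting compares the lines over unlike sites. It adds for Tet/Tet a site 643 bp after the start, at 0% in ESCs and 50% in neurons, and the Tet/Tet change then passes the mark as higher. Between 1 and 5 kb upstream, a region added after these values were seen, 11 Nanog sites averaged 1.42% and 42.9% in R1 and 7.88% and 10.0% in Tet/Tet. No body site of Nanog was listed in all 4 libraries.

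Sox2 (ENSMUSG00000074637.7, chr3:34650405-34652461, + strand) encodes the partner of OCT4 in ESCs, which neural progenitors also use. Its window is the most CpG-rich of the 10, with 171 CpGs. The 116 sites averaged 3.56% (SD 9.46) in ESCs and 1.80% (SD 5.00) in neurons of R1, and 1.99% (SD 5.14) and 3.21% (SD 10.5) in those of Tet/Tet. The median site stood between 0.592% and 0.645% in every library. The R1 change of -1.75 points exceeded that of only 1.55% of the 8439 windows of its class, with 47 sites higher, 44 lower and 25 equal, and the R1 ESC mean includes 4 adjacent sites just before the start that read 50%. The Tet/Tet change was 1.22 points with 40 sites higher and 48 lower, so the mean and the count of sites pointed opposite ways. The highest Sox2 value of Tet/Tet neurons was 100% at 1 site at -461 bp, where the other libraries read 0%. The same low level reached 1 to 5 kb upstream, where 18 sites averaged 3.06% and 6.71% in R1 and 4.82% and 4.76% in Tet/Tet. A single site of the rest of the body was listed in all 4 libraries, at 20% in R1 neurons and 0% in the others.

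The factors of the naive circuit differed from each other at the start site. Esrrb (ENSMUSG00000021255.17, chr12:86361117-86521628, + strand) encodes an orphan nuclear receptor that can take over part of the role of NANOG. The 11 window sites averaged 39.4% (SD 34.6) in ESCs and 76.8% (SD 30.9) in neurons of R1, and 40.9% (SD 22.1) and 9.84% (SD 9.01) in those of Tet/Tet. The 2 ESC libraries were close to each other on average and the neuron libraries lay on either side of them. In R1, 10 sites were higher in neurons and 1 was equal. In Tet/Tet, 10 were lower and 1 was higher. The change was 37.3 points in R1 and -31.1 in Tet/Tet, a difference of -68.4. With all annotated coding starts included, the changes were 11.9 and -3.11 points. The 4 sites from -405 to -374 bp (negative distances are upstream) read 100% in R1 neurons and from 0% to 20% in Tet/Tet neurons, and the site at -9 bp was low in every library, at 8.33% in R1 ESCs and 4.30% in Tet/Tet neurons.

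Most of the measured CpGs of Esrrb lie further in. The gene has other annotated coding starts, and 2 of these, 60527 and 60766 bp into the gene, share a CpG-rich stretch. Within 1 kb of the first of these, 60 sites averaged 4.28% in ESCs and 8.26% in neurons of R1, and 2.26% and 2.93% in those of Tet/Tet. This stretch stayed low while its surroundings did not. The 229 body sites more than 1 kb from every coding start averaged 28.4% and 80.4% in R1 and 23.5% and 13.7% in Tet/Tet. Another coding start 109000 bp in had 3 sites, at 97.7% in R1 neurons against 11.8% in R1 ESCs. Which of these starts the cells use cannot be read from the tables. Over all 310 body sites the means were 22.1% (SD 29.1) and 62.7% (SD 38.5) in R1 and 18.0% (SD 26.8) and 10.99% (SD 14.6) in Tet/Tet. The 49 exonic sites averaged 40.1% in R1 neurons and the 261 intronic ones 66.9%.

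Tfcp2l1 (ENSMUSG00000026380.10, chr1:118627945-118685168, + strand) encodes a grainyhead-like factor of the naive circuit that acts downstream of LIF. Its 44 window sites averaged 1.57% (SD 2.03) in ESCs and 8.68% (SD 11.4) in neurons of R1, and 1.49% (SD 2.47) and 2.16% (SD 3.45) in those of Tet/Tet. In R1, 38 of the 44 sites were higher in neurons, but the mean change of 7.11 points stayed under the 10 points required. It exceeded 84.2% of the 8439 windows of the high CpG class. The highest site in R1 neurons, at 71.4%, was the one 690 bp after the start, the farthest downstream of those measured, and it read 9.09% in Tet/Tet neurons and 0% in both ESC libraries. The body was another matter. Its 22 sites averaged 18.2% (SD 31.5) and 88.1% (SD 17.0) in R1 and 19.4% (SD 28.7) and 12.3% (SD 10.5) in Tet/Tet, with an R1 change of 70.0 points that exceeded 95.5% of the 12661 gene bodies measured. The Tet/Tet mean differed by -7.05 points although 12 sites were higher and 5 lower.

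Prdm14 (ENSMUSG00000042414.7, chr1:13113457-13127163, − strand) encodes a zinc finger protein that represses FGF signalling and the de novo methyltransferase genes in naive ESCs. The 32 window sites averaged 7.45% (SD 17.4) in ESCs and 35.0% (SD 25.6) in neurons of R1, and 3.07% (SD 9) and 7.89% (SD 14.6) in those of Tet/Tet. In R1, 29 sites were higher in neurons, 2 lower and 1 equal. In Tet/Tet, 27 were higher and 3 lower, by 4.82 points on average. Within the high CpG class the R1 change of 27.5 points exceeded 96.7% of 8439 windows and the Tet/Tet change exceeded 98.7%. The 27 sites downstream of the start averaged 4.04% and 29.1% in R1 and 1.79% and 3.84% in Tet/Tet. The 5 upstream averaged 25.9% and 66.7% in R1 and 10% and 29.8% in Tet/Tet, with the 3 sites from -834 to -813 bp at 100% in R1 neurons and at 33.3% to 75.0% in Tet/Tet neurons. In the body, 30 sites averaged 15.6% (SD 20.4) in ESCs and 76.9% (SD 27.1) in neurons of R1, and 27.6% (SD 24.5) and 10.6% (SD 9.57) in those of Tet/Tet.

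**Figure D2:**
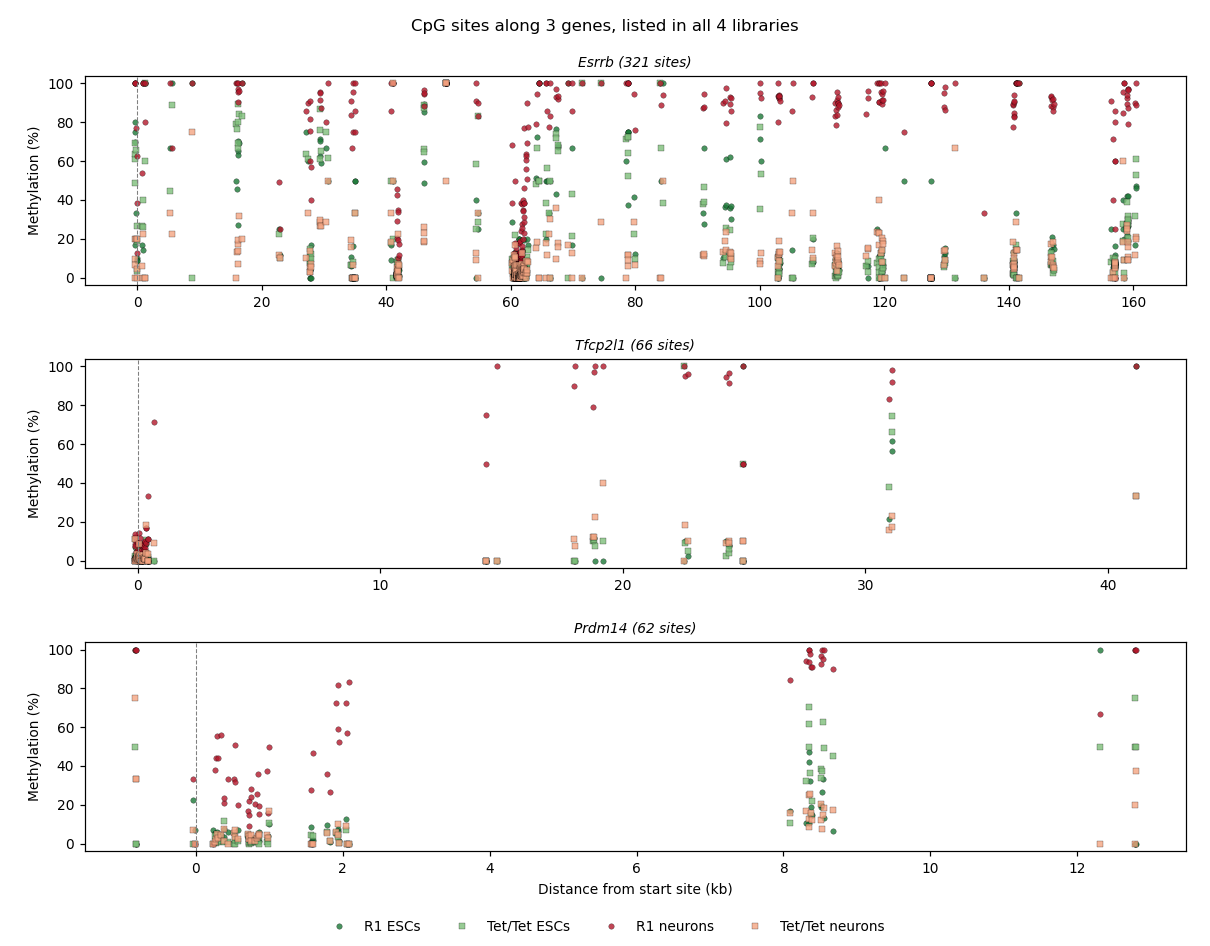
Methylation (%) of each CpG listed in all 4 libraries against distance from the start site in kb, along Esrrb, Tfcp2l1 and Prdm14, with the dashed line at the start site. R1 neurons (dark red circles) are low around the Tfcp2l1 start and at the CpG-rich stretch about 60527 bp into Esrrb, with a mean of 8.26% there. They are also low at a short run of sites about 41807 bp into Esrrb, average 35.0% within 1 kb of the Prdm14 start, and are high over most other sites.

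The remaining genes are markers of the naive and germline states. Dppa3 (ENSMUSG00000046323.8, chr6:122626410-122630272, + strand), 77.2 kb from Nanog, encodes the protein also called STELLA, which shields the maternal genome from demethylation in the zygote. Its 8 window sites averaged 39.1% (SD 20.6) in ESCs and 91.4% (SD 11.9) in neurons of R1, and 43.6% (SD 24.96) and 13.2% (SD 13.3) in those of Tet/Tet. The sites lie 226 to 939 bp after the start, all but that at 386 bp in introns, and no site upstream of the start was measured. All 8 sites were higher in R1 neurons than in R1 ESCs, and 7 were lower in Tet/Tet neurons than in Tet/Tet ESCs with 1 equal. The change was 52.3 points in R1 and -30.4 in Tet/Tet, and the difference of -82.7 was the largest among the windows of these genes. With a window of 2 kb the Tet/Tet change was -14.4 points. The 6 sites of the stretch shown above, 225 to 424 bp after the start, averaged 48.5% and 88.6% in R1 and 54.4% and 17.6% in Tet/Tet. The site 895 bp after the start read 0% in 3 libraries and 100% in R1 neurons. In the body, 20 sites averaged 16.6% (SD 12.8) and 88.7% (SD 21.9) in R1 and 20.2% (SD 29.2) and 22.3% (SD 19) in Tet/Tet. The Tet/Tet change there was 2.08 points against 72.2 in R1, so the body did not share the lower level in Tet/Tet neurons that the window had. Of 10320 protein-coding windows with at least 10 sites, the 3 nearest to Dppa3 by Euclidean distance over the 4 libraries were Gm30191 (distance 3.29 points), 4933414I15Rik (4.41) and Prph2 (4.92).

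Dppa4 (ENSMUSG00000058550.15, chr16:48283733-48294237, + strand) and Dppa2 (ENSMUSG00000072419.5, chr16:48303908-48319723, + strand) are neighbours 9.67 kb apart whose proteins bind chromatin together. The 18 window sites of Dppa4 averaged 4.14% (SD 4.87) in ESCs and 88.0% (SD 8.04) in neurons of R1, and 3.36% (SD 5.03) and 15.5% (SD 12.7) in those of Tet/Tet. The lowest site of R1 neurons stood at 75%, above the highest site of each other library. All 18 sites were higher in R1 neurons than in R1 ESCs, by 83.8 points on average, which exceeded 99.1% of the 2588 windows of the class. In Tet/Tet 15 sites were higher and 3 lower, by 12.1 points on average. The difference of changes was -71.7 points. Only 2 body sites of Dppa4 were listed in all 4 libraries, at means of 25% in ESCs and 100% in neurons of R1, and 8.33% and 0% in those of Tet/Tet.

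For Dppa2 the body alone could be measured, by 13 intronic sites. They averaged 27.9% (SD 33.1) in ESCs and 88.2% (SD 10.6) in neurons of R1, and 18.7% (SD 25.9) and 15.5% (SD 8.39) in those of Tet/Tet. In R1 11 sites were higher, 1 lower and 1 equal. In Tet/Tet 9 were higher, 3 lower and 1 equal although the mean differed by -3.18 points, and 1 site 9283 bp after the start read 100% in the ESCs and 16.7% in the neurons of that line. A second annotated coding start, 6569 bp into the gene, had 3 sites within 1 kb that read like the Dppa4 window, at means of 5.32% and 90.5% in R1 and 3.92% and 13.9% in Tet/Tet.

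Tcl1 (ENSMUSG00000041359.14, chr12:105216750-105222793, − strand) encodes a coactivator of the kinase AKT. Its 4 window sites, from -311 to -167 bp, averaged 5.30% (SD 3.22) in ESCs and 90.4% (SD 5.05) in neurons of R1, and 3.55% (SD 3.38) and 14.7% (SD 3.66) in those of Tet/Tet. All 4 sites were higher in neurons in both lines, by 85.1 points on average in R1 and 11.1 in Tet/Tet. With the sites listed in both libraries of a line, rather than in all 4, the Tet/Tet change was -4.35 points, so its direction depends on which sites are used. The body read differently. Its 10 sites, 4542 to 4818 bp into the gene, averaged 42.0% (SD 18.3) in ESCs and 94.3% (SD 4.11) in neurons of R1, and 55.7% (SD 13.3) and 17.4% (SD 4.04) in those of Tet/Tet. All 10 were higher in R1 neurons and all 10 lower in Tet/Tet neurons than in the ESCs of the line, and the difference of changes, -90.6 points, was the largest of any region here, with 6.30% of gene bodies below it.

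Set in order, the R1 neuron windows ran from Sox2 at 1.80% through Tfcp2l1 at 8.68%, Nanog at 27.8%, Prdm14 at 35.0%, Pou5f1 at 36.1% and Esrrb at 76.8% to Dppa4 at 88.0%, Tcl1 at 90.4% and Dppa3 at 91.4%. Neighbours in this order differed by less than the larger of their SDs over sites, except Tfcp2l1 and Nanog, and Pou5f1 and Esrrb. In Tet/Tet neurons the order ran from Tfcp2l1 at 2.16%, Sox2 at 3.21%, Pou5f1 at 5.44%, Nanog at 7.37%, Prdm14 at 7.89% and Esrrb at 9.84% to Dppa3 at 13.2%, Tcl1 at 14.7% and Dppa4 at 15.5%, with every pair of neighbours closer than the larger of their SDs over sites. The 3 genes that were highest in R1 neurons were also the 3 highest in Tet/Tet neurons, on a scale that ended at 15.5% rather than 91.4%.

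**Figure D3:**
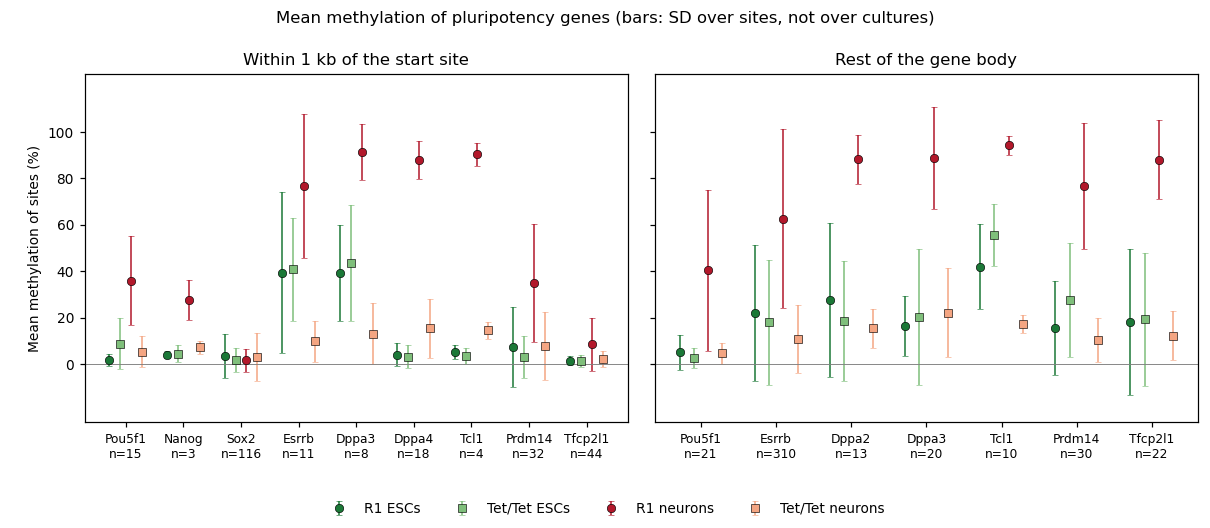
Mean methylation (%) of each gene in the start-site window (left) and in the rest of the gene body (right) in the 4 libraries, with the number of sites under each gene and bars of 1 SD over sites. R1 neurons reach 91.4% at the Dppa3 window and stay at 1.80% at the Sox2 window, while no Tet/Tet neuron mean is above 22.3%.

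Within a cell type the lines were compared directly, since those libraries shared a project. In ESCs, none of the 9 windows was higher in Tet/Tet by 10 points, and Pou5f1 came nearest at 7.01 points, where 3.78% of all windows passed that mark. In the bodies 2 of 7 did, Tcl1 by 13.7 points and Prdm14 by 11.9, against 12% of all bodies. In neurons, Tet/Tet was lower by at least 10 points in 7 of 9 windows, against 30.4% of all windows, and in 7 of 7 bodies, against 96.3% of all bodies. The largest of these window differences were -78.2 points at Dppa3, -75.7 at Tcl1 and -72.5 at Dppa4. Over all genes, the median of this window difference was -1.17 points in the high CpG class, -20.1 in the intermediate and -73.2 in the low. The shares given here are not split by class.

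For the gene bodies, the R1 count and the count of differences were close to the background, while the count of bodies lower in Tet/Tet neurons was below it. All 7 measured bodies were higher in R1 neurons than in R1 ESCs by at least 10 points, and so were 94.2% of the 12661 bodies of all genes. The Tet/Tet change was lower than the R1 change by that much in 7 of 7, against 96.2%. In Tet/Tet, 2 of 7 bodies (Tcl1 and Prdm14) were counted as lower in neurons and none as higher, against 76% lower and 0.758% higher over all bodies. The median of the 7 Tet/Tet changes was -7.05 points and that of all bodies was -25.2. The 7 bodies also had lower medians in ESCs, at 18.2% in R1 and 19.4% in Tet/Tet, than all bodies, at 39.2% and 41.9%. In Tet/Tet ESCs the Pou5f1 body was at 2.68%, too low to be counted as lower, while the other measured bodies had means of 18.0% or more. Their median sites in Tet/Tet ESCs were lower at Esrrb (6.07%), Tfcp2l1 (6.73%), Dppa3 (7.25%) and Dppa2 (14.0%) than at Prdm14 (27.2%) and Tcl1 (52.7%). Many sites of Esrrb, Tfcp2l1 and Dppa3 thus also had no room to fall by 10 points. The part of the ESC level in these counts was not tested.

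**Figure D4:**
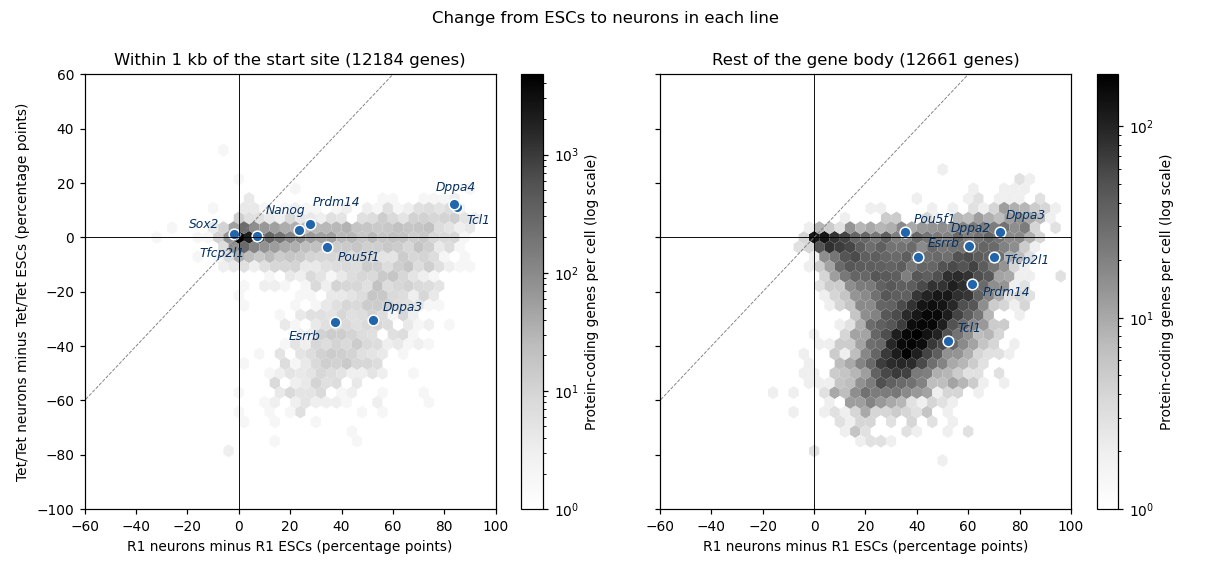
Change from R1 ESCs to R1 neurons (x axis, percentage points) against change from Tet/Tet ESCs to Tet/Tet neurons (y axis, percentage points) for all protein-coding genes (grey cells, darker for more genes, log scale) and the genes described (blue points), in the start-site window of 12184 genes and the rest of the body of 12661. Dppa4 and Tcl1 lie at the right edge of the window panel, at 83.8 and 85.1 points, and every blue point of the body panel lies below the dashed line of equal change.

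Pooled over genes, the 251 window sites show where the levels sit. Sites at or below 20% numbered 233 in ESCs and 172 in neurons of R1, and 230 and 236 in those of Tet/Tet. Sites at or above 80% numbered 3 and 35 in R1, and 0 and 1 in Tet/Tet. Of the 35 that were high in R1 neurons, 25 were at or below 20% in Tet/Tet neurons and 0 were at or above 80%. In the bodies, 250 of 429 sites were at or above 80% in R1 neurons, and of those 187 were at or below 20% and 3 at or above 80% in Tet/Tet neurons. These sites were picked for a high level in R1 neurons, so lower values elsewhere are in part built in. No share over the sites of all genes is given. Over all genes, 30.4% of windows and 96.3% of bodies were lower in Tet/Tet than in R1 neurons by at least 10 points. The genes contributed unequally. Esrrb supplied 310 of the body sites. Sox2 supplied 116 of the window sites and 115 of the 172 at or below 20% in R1 neurons, but none of the 35 at or above 80%, of which 15 lay in Dppa4, 7 in Dppa3, 6 in Esrrb, 4 in Tcl1 and 3 in Prdm14.

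**Figure D5:**
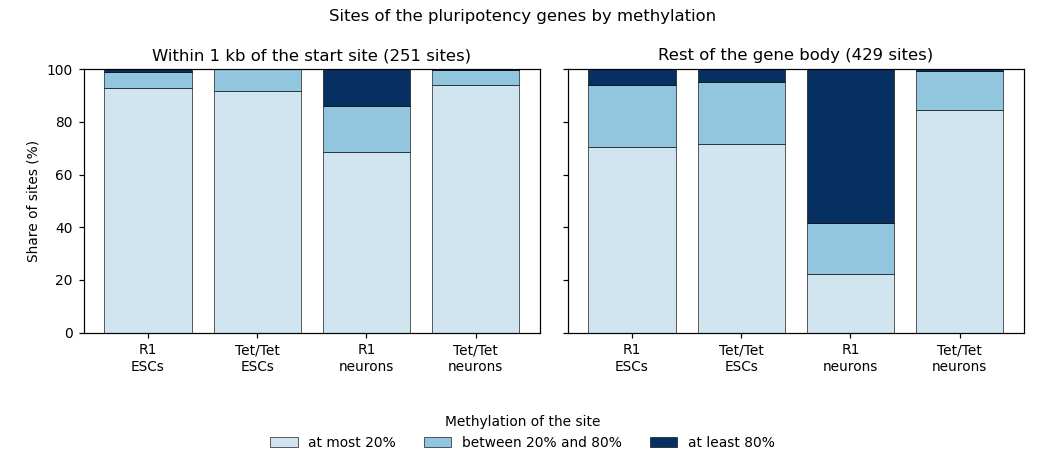
Share of sites (%) at most 20%, between 20% and 80%, and at least 80% methylated in each library, pooled over 251 window sites (left) and 429 body sites (right) of the genes. The darkest part, sites of at least 80%, holds 35 window sites and 250 body sites in R1 neurons and 1 and 3 in Tet/Tet neurons.

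Other genes of the pathway were read from lists. Of 24 further pluripotency genes, 7 lie in parts not analysed here for Tet/Tet neurons and 13 windows were measured. In R1, 4 of the 13 windows were higher in neurons by at least 10 points and none lower, against the 29.8% of all windows given above, and in Tet/Tet none was counted. The 13 windows span the high, intermediate and low CpG classes, where 11.2%, 62% and 93.7% of all windows were higher in R1. Those counted were Gdf3 and Sox15 of the intermediate class and Lefty1 and Fbxo15 of the low class. Sall4, L1td1, Lin28a and Nr0b1 of the intermediate class and Eras of the low class were measured but not counted. The other measured windows were of the high class. The 3 with the largest R1 change were Gdf3, a TGF-beta family ligand, at 2.09% and 70.7% in R1 and 1.77% and 4.86% in Tet/Tet, the SOX factor Sox15 at 3.65% and 45.5% in R1 and 1.76% and 6.93% in Tet/Tet, and the F-box gene Fbxo15 at 0% and 40.8% in R1 and 0% and 5% in Tet/Tet. The median R1 change of the 13 was 1.41 points, against 34.2 for the 9 genes described and 2.68 for all genes, and these medians are not matched by CpG class. Of 8 genes that mark the formative and primed states, none of the 8 windows was counted in either line, and all 8 are of the high CpG class. The largest R1 changes there were 2.95 points at Otx2, 1.90 at Dnmt3a and -1.40 at Lef1. Of 12 neuronal genes, 8 windows were measured, of which 3 were higher in R1 neurons, Dcx by 40.2 points over 3 sites, Snap25 by 15.6 and Neurod1 by 10.95, against 29.8% of all windows. Dcx is of the low CpG class, Snap25 of the intermediate and Neurod1 of the high. In Tet/Tet neurons 2 of the 8 were lower, against 10.8%. In the bodies, 13 of 14 further pluripotency genes, 4 of 8 formative and primed genes and 8 of 9 neuronal genes were higher in R1 neurons, against the 94.2% of all bodies. In Tet/Tet, 0 of 14, 3 of 8 and 6 of 9 of these bodies were lower, against 76% of all bodies, and 0, 0 and 1 were higher, against 0.758%.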

How the data were processed

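RRBS was made from MspI-digested DNA of 4 libraries. Per the sources used here, the authors trimmed reads with Trim Galore 0.6.4, checked them with FastQC 0.11.8, aligned them to mm10 with Bismark 0.19.0 and called CpG methylation with MethylDackel 0.3.0 (versions from the submitters' processing notes). They deposited, per library, the percent methylation of each listed CpG, with no read totals. Uneven or low coverage therefore cannot be weighted or filtered, and the planned test on read counts was not made.

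Here, Python 3.11.15 with numpy 2.4.6 and pandas 2.3.3 averaged sites listed in all 4 libraries, unweighted, on chromosomes 1 to 19, X and Y. A gene needed 3 or more such sites to be measured, and 10 percentage points or more between libraries to be counted. High-class windows held a 500 bp stretch with an observed over expected CpG ratio above 0.75 and GC above 55%, and low-class windows none with a ratio of 0.48 or more. All of the chosen genes are named, and of each further list the 3 genes with the largest R1 change at the start site. Of the further pluripotency genes, the measured windows of the intermediate and low CpG class are named as well. The members and lists were chosen with earlier results of these data known. The averaging was tested on simulated data with equal read depth at every site, a level shared by the sites of a gene and no missing sites. Low or uneven depth was not covered by it. The alternatives tried were 12 chosen at the start and 1 added after seeing the data.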

Additional observations from a re-analysis of the deposited data

Results flagged for a closer look

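In 9 regions the mean moved up in one line and down in the other between ESCs and neurons, with 1 library per condition, so the difference was not tested in any of them. In the start-site windows the Tet/Tet change minus the R1 change was -82.7 points at Dppa3, -68.4 at Esrrb and -37.6 at Pou5f1, where R1 moved up and Tet/Tet down. At Sox2 it was 2.97 points, with R1 moving down and Tet/Tet up, and both changes were smaller than their SD over sites. In the rest of the body it was -90.6 points at Tcl1, -78.3 at Prdm14, -77.0 at Tfcp2l1, -63.5 at Dppa2 and -47.7 at Esrrb. Opposite directions were the usual pattern in gene bodies, where the medians over all protein-coding genes were 40.4 points for the R1 change, -25.2 for the Tet/Tet change and -71.0 for the difference, so Dppa2 and Esrrb differed by less than the median gene. The Tet/Tet changes of Pou5f1 in the window and of Dppa2, Esrrb and Tfcp2l1 in the body were under 10 points in size, and each turned positive under at least 1 alternative. So did the R1 change of Sox2. At Tfcp2l1 the Tet/Tet change was positive at 12 sites and negative at 5, against the sign of the mean.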

How the results depend on the processing

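Of 561 recomputed values of single genes, 485 moved by less than 10 percentage points, 70 moved by more, and 6 that had been 10 points or more in size changed sign. Among the others, 10 values of under 10 points also changed sign. Requiring at least 10 sites left 6 windows, of which 4 were higher in R1 neurons, 2 changed in Tet/Tet and 4 had a lower Tet/Tet change than R1 change. A mark of 25 points left 2 of the 4 windows counted in Tet/Tet. In the region 1 to 5 kb upstream, added after seeing the data, 2 of 6 genes were counted in Tet/Tet. Both were lower in neurons, Esrrb by -46.6 points and Dppa4 by -50 over 4 sites, whereas the Dppa4 window was higher by 12.1 points. No share over all genes is given for this region. In the bodies, 2 genes were counted in Tet/Tet, which became 4 with sites listed in both libraries of a line, 1 with a mark of 25 points, 1 with a window of 500 bp, and 6 (5 higher, 1 lower) after centring each library on its median over all genes. Of 64 gene levels, those that moved by 10 points or more numbered 5 with sites listed in both libraries of a line, 11 with the median over sites, 7 with all coding start sites, 6 with a window of 2 kb, 1 without repeats and 1 with 100 bp stretches, and of 60 levels 7 with MspI fragments of 40 to 220 bp and 2 with a window of 500 bp. Of the larger values, directions changed for the Tet/Tet change of the Tcl1 window (-4.35 points, sites listed in both libraries of a line) and, after centring, for the body values of Pou5f1 (R1 change -5.06, difference of changes 32.2), Esrrb (difference 17.9), Dppa2 (difference 2.07) and Prdm14 (Tet/Tet change 8.16). Of the smaller values, centring turned the Tet/Tet body changes of Esrrb (18.1), Dppa2 (22.0) and Tfcp2l1 (18.1). The median over sites turned the same 3 (0.599, 2.62 and 3.31), sites listed in both libraries of a line turned Dppa2 (4.18), and MspI fragments turned Dppa2 (9.58), the Tet/Tet change of the Pou5f1 window (5.44) and the R1 change of the Sox2 window (0.0633). By its construction, centring removes the change shared by most gene bodies. With all coding start sites the Esrrb window changed by 11.9 points in R1 and -3.11 in Tet/Tet, since the CpG-rich internal starts enter it. No interval was given because read depth per site is unknown. Nanog (3 sites) and Tcl1 (4 sites) rest on few window sites. No paired analysis was possible because each condition had 1 library and no replicate numbers.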
